A study of Rattus norvegicus with 4 samples.

Results

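Mitochondrial ribosomal protein genes were examined in rat tendon stem/progenitor cells (TSPCs), the fibroblast-like progenitors that grow out of tendon, by RNA sequencing. The genes were taken by name, as every row of the deposited expression table whose symbol was Mrpl or Mrps followed by a number and, at most, a letter from a to c. This gave 74 genes of 32623 in the table, each with its own identifier. There were 47 large-subunit and 27 small-subunit genes when Mrps18a and Mrps30 were counted with the large subunit, where their proteins sit in the mammalian mitoribosome. The small-subunit genes include Mrps36 by its name, although its protein is known from the 2-oxoglutarate dehydrogenase complex. In 2 libraries the cells had received U0126, which blocks the MEK kinases upstream of ERK, and in 2 control libraries DMSO, a common solvent for such compounds. No genetic alteration is named for either group, and the sources used here give no animal age, strain, dose or exposure time. The labels call the libraries biological replicates without naming the culture or animal behind each. The p-values therefore rest on the spread among these libraries, which may be technical.

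The mitoribosome translates the few messenger RNAs that the mitochondrial genome itself encodes, all of them for subunits of the respiratory chain and ATP synthase. Its ribosomal RNAs come from mitochondrial DNA, but every one of its proteins is encoded in the nucleus, made in the cytosol and imported. About as many of these proteins are mitochondrial additions as have a counterpart in bacterial ribosomes. In a culture measured in bulk, fewer cells of a type and less RNA per cell cannot be told apart.

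The libraries held 38671289 and 36888913 counts with U0126, and 38890310 and 42785190 counts in controls. Of 11 listed TSPC markers, 10 were expressed well enough to be tested, and of these Thy1 and Alcam fell and Scx, Nt5e and Dcn rose, while the mature tendon marker Tnmd had at most 0.115 CPM (counts scaled to library size by TMM) in any library. The 5 leukocyte markers in the table summed to at most 11.5 CPM with U0126 and at most 14.1 CPM in controls. Nearly all of that was Cd14, Ptprc had 0 counts in all 4 libraries, and of 4 tested 1 fell, Adgre1. The 4 endothelial markers in the table summed to at most 0.782 CPM in any library, mostly Tek, with Cdh5 and Emcn at 0 counts and none called. Of 5 tested cartilage markers Acan fell 2.42-fold and Col2a1, Comp and Matn3 rose. The 5 summed to 722 and 925 CPM with U0126 and 1816 and 2050 CPM in controls, nearly all of it Acan. Of 5 tested skeletal muscle markers 4 fell (Myod1, Cdh15, Des and Acta1), where 11.5% of all genes tested did. The other, Myh3, went the other way without passing, at 1.66 and 4.12 CPM with U0126 and 1.11 and 1.31 CPM in controls. Myog, too low to be tested, had 25 and 8 counts with U0126 and 6 and 0 counts in controls. The summed level of the 6 listed ones, mostly Acta1, was 85.7 and 130 CPM with U0126 and 203 and 225 CPM in controls. The part of these markers in the results below was not tested.

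All 74 genes passed the filter on low counts. With U0126, 6 genes were called lower, 1 higher and 67 neither by the edgeR quasi-likelihood test (Benjamini-Hochberg adjustment over all genes tested, threshold 0.05). The 7 calls made up 9.46% of the members, against a background of 19.9% of the 14023 genes tested. By direction, 8.11% of members fell against 11.5% of all genes, and 1.35% rose against 8.41%. The median log2 fold change, U0126 over control, was -0.08 over the members and 0.02 over all genes tested. It was negative for 45 members and positive for 29. Changes were small: 72 of the 74 lay within 1.5-fold, the exceptions being Mrps6 and Mrps18b.

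Both U0126 libraries lay below both controls for 26 members, or 35.1%, where 31% of all tested genes did. They lay above both controls for 15 members, or 20.3%, against 31.8% of all tested genes. For 57 of the 67 members not called, the 95% interval of the fold change stayed within 1.5-fold either way. It reached past 1.5-fold lower in 4 and past 1.5-fold higher in 8. In simulated data for this comparison, with 13831 genes tested, the test recovered 43.3% of genes changed 1.5-fold and 76.1% of those changed 2-fold. More changes of 1.5-fold were thus missed than found in that simulation. It gave 158 calls, against 2792 in the data, so the adjustment for multiple testing was stricter there. The share of changes recovered among these members was therefore not measured.

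**Figure D1:**
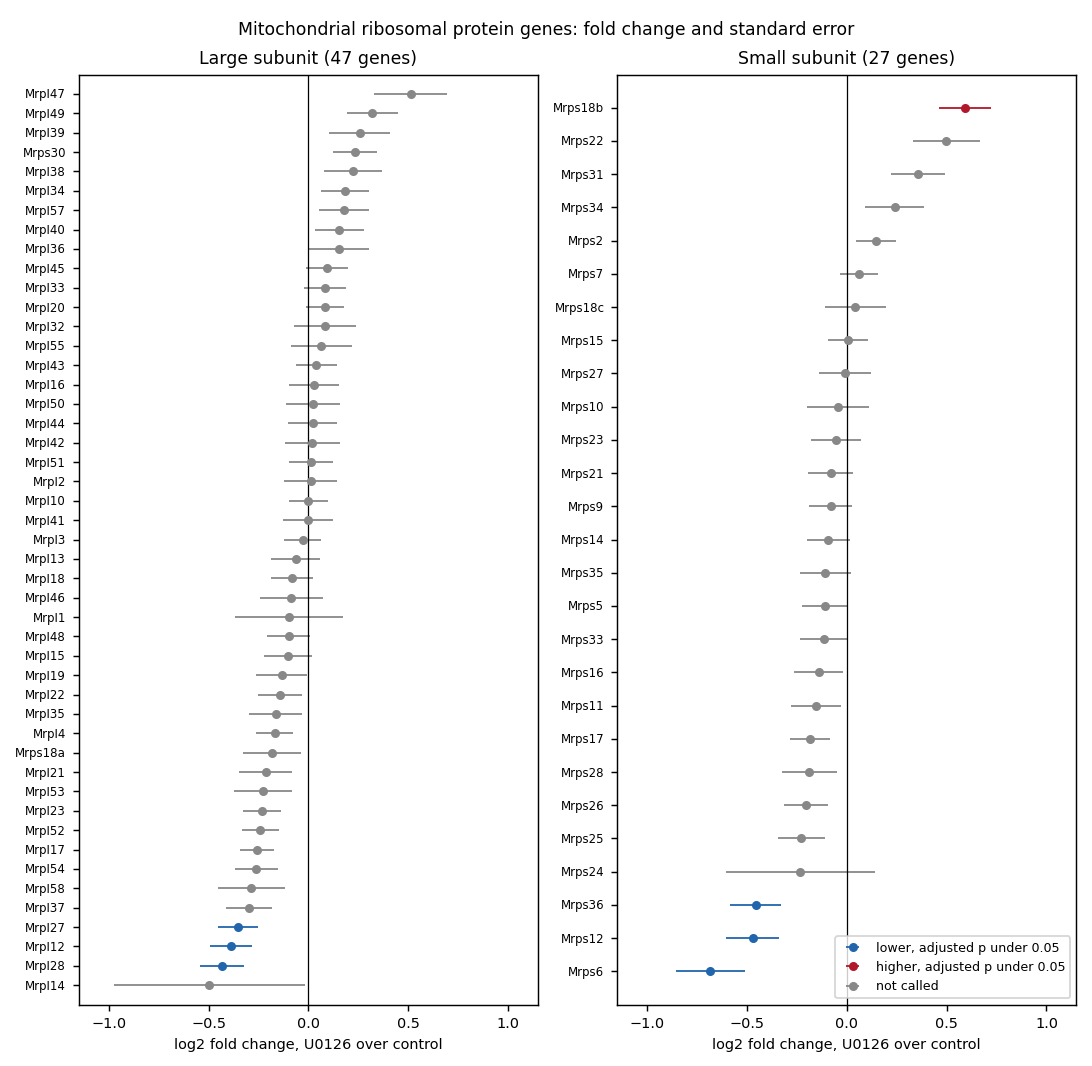
Log2 fold change (x axis, U0126 over control, with its standard error as a bar) of each of the 47 large-subunit and 27 small-subunit genes, ordered by value. The 3 large-subunit and 3 small-subunit genes that fell are blue, Mrps18b is the only red point, and most of the others lie close to 0.

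The fallen genes with an Mrps name were Mrps6, Mrps12 and Mrps36. Mrps6 encodes the counterpart of bacterial protein S6. It lies on chromosome 11 (32211115 to 32263899, plus strand, rn6) and had 11.2 and 15.6 CPM with U0126, against 21.9 and 21.2 CPM in controls. Both U0126 libraries were below both controls, and they differed from each other more than the controls did. The fall was 1.61-fold (log2 fold change -0.68 ± 0.17 SE, edgeR adjusted p = 0.0336), the largest among the members. The log2 fold change was -0.95 without U0126 replicate 2 and -0.46 without U0126 replicate 1.

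Mrps12 encodes the counterpart of bacterial S12, a protein of the decoding centre that streptomycin acts near in bacteria. It lies on chromosome 1 (86920680 to 86923575, minus strand, rn6). Its level was 17.9 and 21.2 CPM with U0126 and 28.5 and 25.6 CPM in controls, with no overlap (1.39-fold lower, log2 fold change -0.47 ± 0.13 SE, edgeR adjusted p = 0.0463). The serine-tRNA ligase gene Sars2 starts 16 bases away on the other strand in the deposited positions. Sars2 did not pass the test (log2 fold change -0.09 ± 0.23 SE), and the difference between these neighbours was not tested.

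Mrps36 carries a mitoribosomal name, but its protein is known as a subunit of the 2-oxoglutarate dehydrogenase complex. It lies on chromosome 2 (30739855 to 30748428, minus strand, rn6) and had 18.1 and 17.9 CPM with U0126 and 26.6 and 22.7 CPM in controls (1.37-fold lower, log2 fold change -0.46 ± 0.13 SE, edgeR adjusted p = 0.0448). On the deposited TPM scale, which corrects for transcript length, it was at 16.9 and 18.9 with U0126 and 30.5 and 23.8 in controls. The effective length implied by the deposited values differed by up to 1.19-fold between libraries for this gene. RefSeq lists 3 pseudogenes of Mrps36 and 1 further gene named as like it, so reads from near-identical copies could be shared and its value is uncertain.

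The fallen large-subunit genes were Mrpl28, Mrpl12 and Mrpl27, all with counterparts in the bacterial ribosome and all on chromosome 10 of rn6. Mrpl28 (15495684 to 15498295, plus strand) had 19.5 and 19.2 CPM with U0126 and 26.2 and 26.0 CPM in controls. Replicates of each group were nearly identical, and the fall was 1.35-fold (log2 fold change -0.43 ± 0.11 SE, edgeR adjusted p = 0.0327). Mrpl12 (109658032 to 109662535, plus strand) encodes the stalk protein of the large subunit, which recruits translation factors and is also known to bind the mitochondrial RNA polymerase. It had 41.8 and 48.0 CPM with U0126 and 58.6 and 58.7 CPM in controls (1.31-fold lower, log2 fold change -0.39 ± 0.10 SE, edgeR adjusted p = 0.0406). Mrpl27 (82375572 to 82381332, plus strand) encodes a protein next to the peptidyl transferase centre. It had 27.7 and 29.3 CPM with U0126 and 35.8 and 37.0 CPM in controls (1.28-fold lower, log2 fold change -0.35 ± 0.10 SE, edgeR adjusted p = 0.0485).

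Mrps18b was the only member that rose. It is 1 of 3 mammalian relatives of bacterial S18, which occupy different places in the mitoribosome. It lies on chromosome 20 (3344870 to 3350927, plus strand, rn6) and had 29.1 and 28.1 CPM with U0126 and 20.7 and 17.2 CPM in controls. The groups did not overlap, and the rise was 1.51-fold (log2 fold change 0.59 ± 0.13 SE, edgeR adjusted p = 0.0195), the smallest adjusted p among the members. RefSeq lists 1 pseudogene of it. The related Mrps18a, whose protein sits in the large subunit, had 19.7 and 22.8 CPM with U0126 and 26.6 and 21.5 CPM in controls, and did not pass. Mrps18c had 13.6 and 11.3 CPM with U0126 and 11.5 and 12.7 CPM in controls, and did not pass either. Whether the 3 relatives differ from each other in response was not tested.

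All 7 calls were lost when either control was left out, where 913 and 899 genes of the whole table were called in place of 2792. Without U0126 replicate 2, 11 members fell and 3 rose, and 4644 genes were called. With all 4 libraries the edgeR adjusted p of the 7 called members lay between 0.0195 and 0.0485, most of them close to the threshold. Whether this closeness accounts for the lost calls was not tested. Over the 14 alternatives tried, Mrps6 and Mrps18b were called in 12, Mrpl28 and Mrpl12 in 11, Mrps36 in 10, Mrps12 in 8 and Mrpl27 in 7, and each of the 7 kept its sign in all 14.

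**Figure D2:**
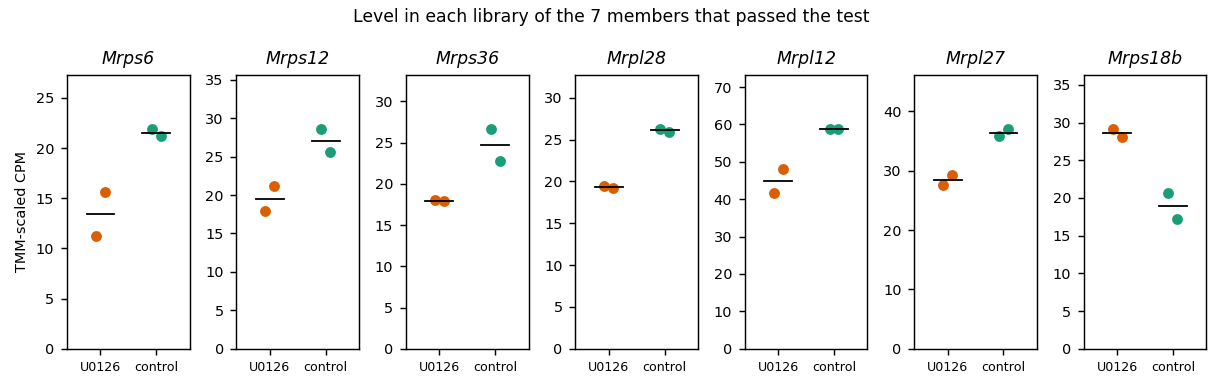
TMM-scaled CPM (y axis, from 0, scaled to each gene) of the 7 members that passed the test, with 1 point per library, U0126 orange and control green, and a bar at the mean of the 2 libraries. The U0126 points lie below both control points for 6 genes and above both for Mrps18b.

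Proximal promoters of the members were read from RefSeq (build GRCr8), the 250 bases before the annotated start. Entries were matched by symbol for 59 of the 74 members, among them 5 of the 7 called ones. Short motifs were searched on both strands, and none of them contains another. The ETS core CGGAAG, bound by ETS factors such as GABP, a regulator of mitochondrial genes, was in 21 of the 59 windows, or 35.6%. It was in 16.8% of the windows of all protein-coding genes and in 13.9% of all windows in the table. The NRF1 motif, GCGCA and GCGC separated by any base, was in 6 members, or 10.2%, and in 5.07% of protein-coding genes. The E-box CACGTG was in 5.08% and 6.16%, and CCAAT in 44.1% and 35%, of members and protein-coding genes. A YY1 motif was in 0 member windows and in 0.398% of protein-coding windows. The protein-coding windows were not matched to the members for expression or base content, and none of these differences was tested. A match is a run of letters and not a measured binding site.

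The windows of the only riser, of the gene with the largest fall and of a fallen gene with an ETS core are shown because they carry the contrast in direction, each from 250 bases before the start up to the last base before it, with motif matches in capitals.
Mrps18b, chr20:2842756-2843005, plus strand, GRCr8: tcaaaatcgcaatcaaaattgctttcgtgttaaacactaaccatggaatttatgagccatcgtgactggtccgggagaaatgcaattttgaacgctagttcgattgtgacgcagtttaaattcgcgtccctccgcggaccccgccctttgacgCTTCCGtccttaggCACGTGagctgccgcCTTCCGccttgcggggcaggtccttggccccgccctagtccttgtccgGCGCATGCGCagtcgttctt
Mrps6, chr11:44778417-44778666, plus strand, GRCr8: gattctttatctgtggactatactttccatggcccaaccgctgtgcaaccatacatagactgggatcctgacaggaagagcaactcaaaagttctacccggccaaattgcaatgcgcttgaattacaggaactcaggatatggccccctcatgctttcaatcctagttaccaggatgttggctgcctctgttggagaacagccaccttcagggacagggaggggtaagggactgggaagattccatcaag
Mrpl27, chr10:80092095-80092344, plus strand, GRCr8: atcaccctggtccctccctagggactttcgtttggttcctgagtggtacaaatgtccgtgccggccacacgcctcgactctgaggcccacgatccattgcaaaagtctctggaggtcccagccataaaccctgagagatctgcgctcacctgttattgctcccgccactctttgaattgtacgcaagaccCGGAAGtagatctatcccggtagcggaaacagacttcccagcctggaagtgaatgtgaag

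The Mrps18b window held the ETS core on its other strand in 2 places, starting 97 and 68 bases before the start, an E-box starting 83 bases before it and the NRF1 palindrome starting 20 bases before it. The Mrpl27 window held 1 ETS core, starting 60 bases before the start, and the Mrps6 window held none of the motifs searched. Of the other called members with an entry, Mrpl28 held a CCAAT box 53 bases before the start and Mrpl12 held none of the motifs. Fallen genes were thus found with and without an ETS core in this window.

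Levels per transcript length were compared on the deposited TPM scale (transcript abundance corrected for length and library size). Averaged over the 4 libraries, the members ranged 49.1-fold, around a median of 41.1 TPM. The 5 most abundant transcripts all encoded large-subunit proteins, as 47 of the 74 members do. Mrpl33 was highest, at 249 and 271 TPM with U0126 and 251 and 261 TPM in controls. Its rank rests on a derived effective length of 200 bases, where the members' median was 1002 bases. It had 28.3 and 30.4 CPM with U0126 and 27.7 and 27.7 CPM in controls. In TPM, Mrpl17 followed at 191 and 204 with U0126 and 241 and 250 in controls, then Mrpl54 at 156 and 185 TPM against 213 and 212 TPM. Mrpl23 had 115 and 115 TPM with U0126 and 141 and 141 TPM in controls, and Mrpl20 had 128 and 120 TPM against 121 and 124 TPM.

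None of these 5 passed the count test. Both U0126 libraries were below both controls for Mrpl17 (edgeR adjusted p = 0.0816), Mrpl54 and Mrpl23. Mrpl17 was the uncalled member nearest the threshold, and it was called as lower with library totals alone. The least abundant members were Mrpl1, at 5.61 and 4.48 TPM with U0126 and 4.46 and 6.46 TPM in controls, and Mrpl47, at 9.45 and 7.58 TPM against 5.63 and 6.83 TPM. Mrpl40, Mrps10 and Mrps35 followed, each averaging under 13 TPM. Both genes of the extremes, Mrpl33 and Mrpl1, overlapped between the groups on this scale.

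Summed over all 74 members, the level was 3394 and 3504 TPM with U0126 and 3820 and 3830 TPM in controls. The members took 0.178% and 0.181% of all counts with U0126 and 0.201% and 0.195% in controls. The U0126 libraries were lower on both measures and the groups did not overlap, although these shares also move with what other genes take. Replicates matched closely: the median absolute log2 difference between replicates was 0.09 in U0126 and 0.10 in control libraries over the members, against 0.19 and 0.12 over all genes tested.

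**Figure D3:**
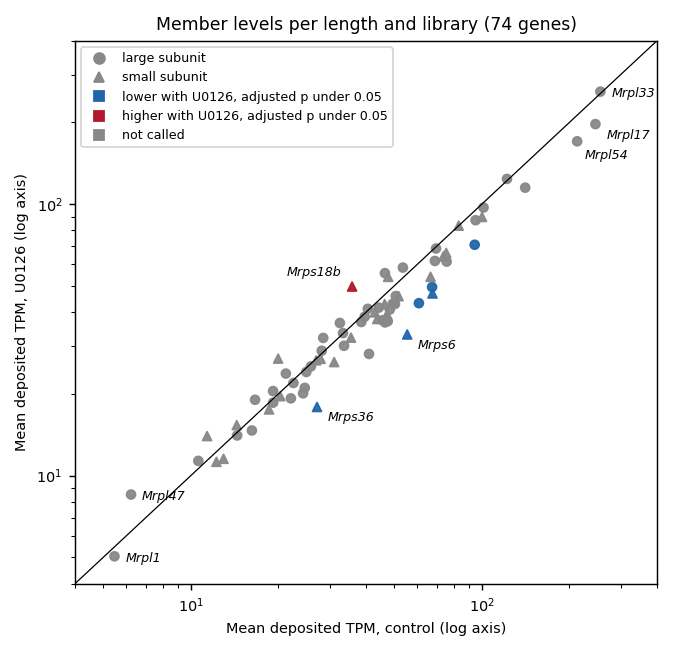
Mean deposited TPM with U0126 (y axis, log scale) against control (x axis, log scale) for the 74 members, with circles for large-subunit and triangles for small-subunit genes, blue for lower and red for higher by the count test. The points follow the line of equal level over the 49.1-fold range, with Mrps6 and Mrps36 below it and Mrps18b above it.

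Of 47 large-subunit genes 3 fell (6.38%, against 11.5% of all genes tested) and 0 rose (against 8.41%), with a median log2 fold change of -0.03. Of 27 small-subunit genes 3 fell (11.1%) and 1 rose (3.7%), with a median of -0.09, and without Mrps36 2 of 26 fell. Members were also split by the number in their name, a rough stand-in for having a bacterial counterpart. Names up to Mrpl36 and Mrps21 formed the low-number class and later ones the high-number class. No sequences were compared, and some high-number members may have a bacterial counterpart. In the low-number class 5 of 40 members fell (12.5%, near the share of all genes) and 1 rose (2.5%). Its median was -0.09, with 28 of 40 values negative. In the high-number class 1 of 34 fell (2.94%), which was Mrps36, and 0 rose. Its median was 0.01, with 17 values of each sign. Within the large subunit 18 of 25 low-number and 8 of 22 high-number genes had a negative value. None of these differences between classes was tested.

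Several members with a role known from disease or structure did not pass the test. Mrpl10, which anchors the stalk that Mrpl12 belongs to, had 36.7 and 35.1 CPM with U0126 and 35.1 and 36.8 CPM in controls (log2 fold change 0.00 ± 0.10 SE, 95% interval -0.23 to 0.23). Mrpl3, a core protein near the peptidyl transferase centre, had 38.5 and 40.7 CPM with U0126 and 40.3 and 40.5 CPM in controls (95% interval -0.25 to 0.19 on the log2 scale). Mrpl44, which has a ribonuclease III fold and is mutated in human cardiomyopathy, had 18.5 and 20.8 CPM with U0126 and 19.2 and 19.4 CPM in controls. Groups overlapped for all 3 genes. Mrps16, mutated in a human respiratory chain deficiency, had 21.5 and 23.6 CPM with U0126 and 26.3 and 23.4 CPM in controls, overlapping narrowly.

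Mrpl58, a peptidyl-tRNA hydrolase that frees stalled mitoribosomes, had 15.9 and 19.2 CPM with U0126 and 24.2 and 18.6 CPM in controls. The controls lay further apart than the group means, which were 17.5 CPM with U0126 and 21.4 CPM in controls. Mrps34, which is mutated in human Leigh syndrome, had 25.1 and 31.3 CPM with U0126 and 22.0 and 25.8 CPM in controls. Mrps30, a large-subunit protein despite its name, had 26.1 and 29.2 CPM with U0126 and 23.5 and 23.6 CPM in controls. It lay above both controls but did not pass (log2 fold change 0.23 ± 0.11 SE, edgeR adjusted p = 0.194).

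The larger positive values short of the threshold were those of Mrps22 and Mrpl47. Mrps22, mutated in a human infantile cardiomyopathy, had 22.3 and 16.4 CPM with U0126 and 13.6 and 13.8 CPM in controls (log2 fold change 0.50 ± 0.17 SE, edgeR adjusted p = 0.0833). Mrpl47 had 10.7 and 8.45 CPM with U0126 and 6.18 and 7.24 CPM in controls (log2 fold change 0.51 ± 0.18 SE, edgeR adjusted p = 0.0972). In both genes the U0126 libraries were above both controls, with U0126 replicate 1 the higher, and both passed once U0126 replicate 2 was left out.

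Mrpl14 stood apart through its replicates. It had 6.35 and 18.7 CPM with U0126 and 22.8 and 12.5 CPM in controls, so that libraries of 1 group differed more than the groups did (log2 fold change -0.50 ± 0.48 SE). Without U0126 replicate 2 its log2 fold change was -1.48 and it was called as lower (edgeR adjusted p = 0.00694, the lowest over its alternatives, which reached 0.999). Without U0126 replicate 1 it was 0.09. Mrps24, chosen after its values were seen, behaved likewise, with 30.6 and 18.9 CPM with U0126 and 17.9 and 40.2 CPM in controls. These were the only 2 members whose replicates lay over 1.5-fold apart, in both groups. No direction is drawn from either gene.

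Neighbouring genes were examined in the deposited positions. For 11 members the span of another listed gene overlapped, on whole genes without regard to exons. Since the strand setting of the counting is not given, reads from a shared stretch cannot be told apart. The genes overlapping Mrps28 and Mrps9 had 0 counts in all 4 libraries. None of the 7 called members was among the 11. Mrpl57 shares its locus with Ska3, a kinetochore gene on the other strand that fell (log2 fold change -2.20 ± 0.19 SE, edgeR adjusted p = 0.000483), and Mrpl57 had 16.4 and 15.5 CPM with U0126 and 14.3 and 13.9 CPM in controls. Mrpl13 overlaps Mtbp, which fell 2.10-fold, and had 46.0 and 38.6 CPM with U0126 and 46.6 and 41.9 CPM in controls. Both pairs were chosen after their values were seen.

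Of the 74 members 16, among them 2 of the overlapping ones (Mrpl47 and Mrpl49), had a gene starting within 1000 bases upstream on the opposite strand. Mrps11 and Mrpl46, both members, start 72 bases apart and point away from each other. Their log2 fold changes were -0.15 ± 0.13 SE for Mrps11 and -0.09 ± 0.16 SE for Mrpl46, and neither passed. Among the partners of the 16, Eme2, which starts 71 bases from Mrps34, was the only one called (log2 fold change 0.47 ± 0.13 SE, edgeR adjusted p = 0.0485). Of all genes tested, 19.9% were called. Ppp1r10, which starts 584 bases from the riser Mrps18b, did not pass (log2 fold change -0.07 ± 0.11 SE).

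Mitoribosomal genes written otherwise in the table gave a similar picture. The lower-case entries mrpl9, mrpl11 and mrpl24 fell outside the naming rule and had log2 fold changes of 0.03, 0.07 and -0.02, with no call. Of 5 listed mitoribosomal proteins with other names, 4 were tested and none passed. Dap3, a GTP-binding small-subunit protein, was nearest, with 40.3 and 39.7 CPM with U0126 and 47.2 and 46.9 CPM in controls (log2 fold change -0.23 ± 0.09 SE, edgeR adjusted p = 0.122). Ptcd3, Chchd1 and Gadd45gip1 lay between -0.17 and 0.03.

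Few genes that build and serve the mitoribosome passed the test. Of 26 assembly and ribosomal RNA modification genes, 2 rose (7.69%, near the 8.41% of all genes tested) and 0 fell, with a median log2 fold change of 0.15. Mterf3, which is needed for large-subunit biogenesis in mice, had 33.3 and 27.6 CPM with U0126 and 21.2 and 21.6 CPM in controls (edgeR adjusted p = 0.0315). Noa1, a GTPase of mitochondrial translation, had 17.5 and 18.5 CPM with U0126 and 12.7 and 12.8 CPM in controls (edgeR adjusted p = 0.0317). Of 14 translation factors 0 passed edgeR's test, with a median log2 fold change of 0.09, 9 positive values and 5 negative ones. The elongation factor Tufm, the mitochondrial EF-Tu, went against most of them. It was at 41.7 and 43.1 CPM with U0126 and 47.9 and 48.8 CPM in controls.

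Of 22 genes that charge mitochondrial tRNAs 1 rose and 1 fell (4.55% each, against 8.41% and 11.5% of all genes tested). Fars2, the phenylalanine-tRNA ligase, had 16.2 and 14.8 CPM with U0126 and 7.94 and 8.68 CPM in controls (1.86-fold higher, edgeR adjusted p = 0.00542). Pars2, the proline-tRNA ligase, had 7.35 and 7.57 CPM with U0126 and 10.4 and 11.1 CPM in controls (edgeR adjusted p = 0.0442). Of 19 genes of mitochondrial transcription and RNA handling, Ssbp1, the single-stranded DNA-binding protein, rose 1.55-fold and 18 did not pass, so that 5.26% rose. Among 11 tested regulators of mitochondrial biogenesis only Myc passed (1.29-fold higher, edgeR adjusted p = 0.0497), or 9.09%, near the share of all genes that rose. Nrf1 and Gabpa, which encode activators of nuclear mitochondrial genes, had log2 fold changes of -0.19 ± 0.15 SE and -0.05 ± 0.16 SE. In place of the 6 calls in these lists there were 0 when either control was left out and 15 without U0126 replicate 2.

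The messenger RNAs that mitoribosomes translate were higher. All 13 mitochondrially encoded mRNAs rose with U0126, where 8.41% of all genes tested did. Their median log2 fold change was 0.76, with a range of 0.47 to 0.96. All 13 had both U0126 libraries above both controls, against 31.8% of all genes tested. Mt-nd5, a complex I subunit, had 2885 and 2544 CPM with U0126 and 1554 and 1436 CPM in controls (1.82-fold higher, edgeR adjusted p = 0.00192). Mt-co2, a cytochrome oxidase subunit, had 5008 and 4210 CPM with U0126 and 2526 and 2262 CPM in controls (1.93-fold higher, edgeR adjusted p = 0.00221). The 13 arise from shared precursor transcripts and are not independent of each other. Together they took 5.51% and 4.72% of all counts with U0126 and 3.42% and 2.93% in controls, a share that can also move with RNA quality, whose part was not tested. The number called was 5 without control replicate 2 and 9 without control replicate 1.

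Set against the members, the summed TPM of these mRNAs was 30.3 and 24.9 times the summed TPM of the 74 mitoribosomal protein genes with U0126, and 16.3 and 14.4 times in controls. The groups did not overlap in this ratio, whose upper term was higher and whose lower term was lower with U0126.

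Nuclear genes for subunits of the respiratory chain and ATP synthase had a negative median, as the members did. Among 81 such genes the test called 14 lower and 1 higher and left 66 uncalled, with a median log2 fold change of -0.12. The 18.5% called lay near the 19.9% of all genes tested, with 17.3% lower against 11.5% and 1.23% higher against 8.41%. Atp5g3, a subunit of the ATP synthase ring, had 96.6 and 101.4 CPM with U0126 and 145 and 139 CPM in controls (edgeR adjusted p = 0.00734). The number called was 2 with either control left out and 25 without U0126 replicate 2. Cox6a2, the muscle-type subunit of cytochrome oxidase, was the riser, with 23.5 and 25.4 CPM with U0126 and 3.05 and 3.42 CPM in controls.

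Cytosolic ribosomal protein genes had a median of the opposite sign. Among 97 such rows the test called 19 higher and 3 lower and left 75 uncalled, with a median log2 fold change of 0.13. The 22.7% called lay near the 19.9% of all genes tested, with 19.6% higher against 8.41% and 3.09% lower against 11.5%. The number called in either direction was 1 with either control left out, and the number that rose was 8 when libraries were scaled by their totals alone. Rpl23a had 785 and 733 CPM with U0126 and 565 and 495 CPM in controls (edgeR adjusted p = 0.0133), and Rpl22l1, a relative of Rpl22, had 14.9 and 14.8 CPM against 34.7 and 38.2 CPM. Many of these genes have near-identical copies in the rat genome, so single values are uncertain. The difference between the mitochondrial and cytosolic lists was not tested.

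**Figure D4:**
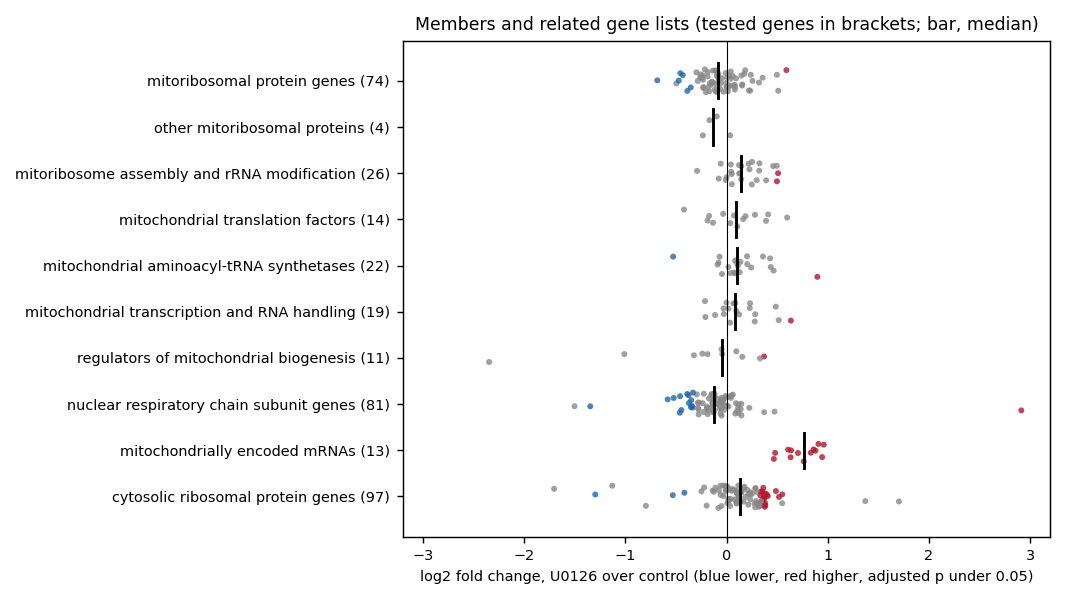
Log2 fold change (x axis, U0126 over control) of every tested gene in the mitoribosomal protein genes and 9 related lists (y axis), with blue for lower, red for higher and grey for not called, and a bar at each median. The 13 mitochondrially encoded mRNAs all lie above 0, with a median of 0.76, and the 74 members centre at -0.08.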

How the data were processed

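RNA from 4 libraries was extracted with Trizol and sequenced after a standard Illumina preparation, per the labels' protocols. Per the submitters' processing notes the build was rn6. Aligner, counting tool, strand setting and annotation: not given in the sources used here. The authors deposited whole-number counts, which were tested, with TPM values, used for levels per length, and FPKM values, used with the counts to derive an effective length per gene. Each column name carries a letter and number that fit a single sample's description.

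Genes passing edgeR's filterByExpr (minimum count 10, minimum total 15) were scaled by TMM and tested with edgeR's quasi-likelihood F test (two-sided, Benjamini-Hochberg adjustment over 14023 genes, threshold 0.05). The alternatives used DESeq2 1.42.0 and limma 3.58.1, the main test edgeR 4.0.16, all in R 4.3.3. Log2 fold changes carry a prior count of 0.125. Their standard error is the absolute log2 fold change over the square root of F, and 95% intervals use it unadjusted. CPM are TMM-scaled. A count of 0 allows up to 3 counts, between 0.0689 and 0.0829 CPM, and this floor covers counting error only.

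The test was tried on simulated counts, where 7.59% of 158 calls were false. Alternatives were other scalings, filters and tools, a length correction, a replicate block and leaving out each library. The members and lists were chosen with earlier results of these data known. Genes named were the called members, the 5 of highest and lowest TPM, the 3 of largest change in each direction, 14 with a fixed role, and up to 3 called genes per list and direction, some of which are not printed.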

Additional observations from a re-analysis of the deposited data

How the results depend on the processing

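With 2 libraries a group, calls near the threshold rest on few data. The members that fell, 6 in the report, numbered 3 with no filter on low counts, which lost Mrps36, Mrps12 and Mrpl27, and between 0 and 11 with 1 library left out. Those that rose, 1 in the report, lay between 0 and 3, and all genes called between 899 and 4644. No member passed without control replicate 1 or without control replicate 2, where 3 and 5 had an unadjusted p under 0.05 in edgeR's test, against 16 with all libraries. Removing the length trend lost Mrps12 and Mrpl27, upper quartile scaling lost Mrpl27, and leaving out U0126 replicate 1 lost Mrps12 and Mrpl27. The members' median log2 fold change was negative in all 14 alternatives. It was -0.134 with library totals alone, -0.0530 with the length trend removed, -0.117 with deposited TPM tested by limma on log2(TPM + 1), chosen after seeing the data, and between -0.0815 and -0.0299 with 1 library left out. Cytosolic ribosomal protein genes called, 22 in the report, were 12 with library totals alone and between 1 and 33 with 1 library left out. Nuclear respiratory subunit genes called lay between 2 and 25, mitochondrially encoded mRNAs that rose between 5 and 13, and genes of the other mitochondrial lists called between 0 and 15. Genes of those other lists numbered 3 with the replicate block and 2 with deposited TPM. The causes were not tested.

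No large effect shared by equal replicate numbers was seen: the differences between replicates 1 and 2 in the 2 groups had a correlation of -0.0461 across 14023 genes. Whether the libraries were paired by culture or day cannot be told from this value. With the replicate block 1 member fell (Mrps6), 1 rose (Mrps18b), and 2371 genes were called.

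The sign turned in some alternatives for members that were not called. With 1 library left out, the log2 fold change lay between -0.330 and 0.181 for Mrpl1, between -0.132 and 0.0318 for Mrps10, between -1.48 and 0.0879 for Mrpl14, between -0.0357 and 0.0324 for Mrpl10, between -0.0937 and 0.157 for Mrps18c, between -0.0751 and 0.106 for Mrpl44 and between -0.0779 and 0.0102 for Mrpl3. Mrpl10 was at 0.0127 with upper quartile scaling and 0.00208 with a stricter filter. With library totals alone Mrps18c was at -0.0115 and Mrpl44 at -0.0318, and with deposited TPM they were at -0.0212 and -0.0389.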
